A study of Mus musculus with 9 samples.

Results

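Keratin-associated proteins are the matrix proteins of the hair shaft. The genes described here are all those whose symbol starts with Krtap followed by a digit and that stand in the gene tables of all 9 libraries, which gave 58 of 55339 gene names, with no minimum level. The libraries hold polyadenylated RNA of labial mucosa biopsies, the inner lining of the lip, from mice of 3 strains: Tac111, Tac146 and B6, with 3 libraries each. Tac111 replicates and B6 replicates are numbered 1, 2 and 3, and Tac146 replicates 2, 3 and 4. In all 3 strains the mice were infected before the biopsy. The sources used here do not state the agent, the time after infection, the age of the mice, the alleles that set Tac111 and Tac146 apart or whether each library came from its own animal. A p-value below is therefore relative to the spread of these libraries, part of which may be technical.

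During hair growth, cells of the shaft first fill with hair keratin filaments and then, late in their differentiation, make keratin-associated proteins that are cross-linked to the keratins, largely through disulfide bonds of cysteine. The proteins are small and are sorted by composition into high-sulfur, ultra-high-sulfur (ultra-high cysteine) and high-glycine-tyrosine kinds. Their genes lie in tight clusters and their transcripts mark the keratinising cortex and cuticle of growing hair. The mucosal side of the lip bears no hair, while the skin on its outer side does.

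The labels call the cells of the Tac111 and Tac146 libraries T cells and those of the B6 libraries type 1 innate lymphoid cells, although the tissue is a whole biopsy. Summed over 8 T cell markers, led by Cd5, Trbc2 and Cd3g, the level was 15.0 to 17.5 CPM in Tac111, 14.7 to 16.2 CPM in Tac146 and 19.2 to 22.4 CPM in B6 libraries (CPM, counts per 1000000 of the scaled library size). Cd5 and Trbc2, which held most of this sum, were not called by edgeR in any comparison. The genes of the CD3 chains, Cd3d, Cd3e and Cd3g, were at 0 in all 3 Tac111 libraries. They ran from 0 to 0.708 CPM in Tac146 and from 0.661 to 2.42 CPM in B6. EdgeR called each of them lower in Tac111 and in Tac146 than in B6. Summed over 8 markers of type 1 innate lymphoid and natural killer cells, led by Gzmc, Il2rb and Klrk1, the level was 0.939 to 1.12 CPM in Tac111, 13.2 to 18.6 CPM in Tac146 and 11.6 to 16.3 CPM in B6. Their receptor Ncr1 was at 0 in Tac111 and ran from 0.332 to 0.463 CPM in Tac146 and from 0.167 to 0.452 CPM in B6. Keratins of oral epithelium (Krt13, Krt4, Krt6a and 3 others) summed to 59610 to 100800 CPM over the 9 libraries, and 12 skeletal muscle genes, led by Atp2a1, Acta1 and Myh4, to 23580 to 44400 CPM, so the defining markers are those of whole lip tissue. Total expected counts were 27192359 to 46456500 per library.

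All 58 genes matched the GENCODE M21 annotation of GRCm38. Protein coding genes made up 57 of them, while Krtap19-9a is annotated as a processed pseudogene. Most are single-exon genes (55 of 58), and they lie on chromosomes 16 (25 genes), 11 (23 genes), 7 (5 genes), 10 (3 genes) and 1 (2 genes). By the codons of their reading frames, 15 were of high glycine and tyrosine (at least 35% of codons) and all of these lie on chromosome 16. Another 21, on chromosomes 11, 7, 10 and 1, were of ultra-high cysteine (over 30% of codons). The other 21 reading frames fell in neither class and are called the other members.

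The coding sequences below are those of the gene with the highest mean level in each class and of the pair of abundant members most alike, from the GENCODE M21 transcripts (GRCm38), 5′ to 3′. In Krtap8-1 (16:89487379-89487952, minus strand) and Krtap7-1 (16:89507703-89508323, minus strand) the capitals mark codons of glycine and tyrosine, 29 of 61 codons in Krtap8-1 and 26 of 87 in Krtap7-1. In Krtap4-1 (11:99627224-99628238, minus strand, first 300 of 507 coding bases) and Krtap3-3 (11:99550130-99550865, minus strand) they mark codons of cysteine, 37 of 100 and 20 of 99.
Krtap8-1: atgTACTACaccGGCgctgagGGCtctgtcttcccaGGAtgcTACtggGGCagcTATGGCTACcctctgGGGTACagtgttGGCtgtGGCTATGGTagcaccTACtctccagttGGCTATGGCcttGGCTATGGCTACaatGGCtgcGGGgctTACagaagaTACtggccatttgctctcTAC
Krtap7-1: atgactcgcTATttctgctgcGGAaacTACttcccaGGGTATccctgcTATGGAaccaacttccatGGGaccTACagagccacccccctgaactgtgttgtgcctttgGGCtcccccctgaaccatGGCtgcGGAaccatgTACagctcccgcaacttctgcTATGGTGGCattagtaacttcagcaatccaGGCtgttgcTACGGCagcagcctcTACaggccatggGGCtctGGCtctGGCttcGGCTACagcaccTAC
Krtap4-1: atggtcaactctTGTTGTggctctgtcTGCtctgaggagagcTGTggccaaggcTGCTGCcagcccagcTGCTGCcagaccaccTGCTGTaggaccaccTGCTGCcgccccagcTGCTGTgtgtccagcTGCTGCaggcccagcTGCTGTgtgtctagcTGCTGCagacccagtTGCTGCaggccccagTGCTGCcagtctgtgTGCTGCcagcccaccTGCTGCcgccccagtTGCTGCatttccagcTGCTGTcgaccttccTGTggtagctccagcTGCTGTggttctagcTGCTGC
Krtap3-3: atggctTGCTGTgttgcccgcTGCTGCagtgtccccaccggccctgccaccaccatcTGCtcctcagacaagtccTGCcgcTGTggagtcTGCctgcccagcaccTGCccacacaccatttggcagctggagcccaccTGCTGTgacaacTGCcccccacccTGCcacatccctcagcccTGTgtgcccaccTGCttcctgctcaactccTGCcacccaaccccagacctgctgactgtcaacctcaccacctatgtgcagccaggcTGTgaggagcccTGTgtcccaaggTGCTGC
In the stretch of Krtap4-1 the cysteine codons form 17 pairs, and 14 of the 16 gaps between them are 3 codons long, whereas the glycine and tyrosine codons of Krtap8-1 stand singly or in short runs. The coding sequence of Krtap3-2 (11:99555823-99556853, minus strand) was identical to that of Krtap3-3 over all 297 bases.

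RefSeq (GRCm38.p6) gave a promoter for 51 of the 58 genes. The 120 bases before the start of transcription are shown for the most abundant members that matched, with TATAAA in capitals, since these are the genes whose levels move together below.
Krtap8-1 promoter (chr16:89487953-89488072, minus strand): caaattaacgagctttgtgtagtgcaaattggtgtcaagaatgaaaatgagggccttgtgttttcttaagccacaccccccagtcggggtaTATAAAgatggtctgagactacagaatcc
Krtap3-3 promoter (chr11:99550864-99550983, minus strand): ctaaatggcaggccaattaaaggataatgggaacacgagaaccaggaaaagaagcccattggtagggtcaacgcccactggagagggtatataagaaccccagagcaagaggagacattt
Krtap1-5 promoter (chr11:99581017-99581136, minus strand): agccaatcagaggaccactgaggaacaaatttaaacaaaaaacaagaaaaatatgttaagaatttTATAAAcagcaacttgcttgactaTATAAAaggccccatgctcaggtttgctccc
TATAAA, the core of the TATA box, began 29 bases before the start in Krtap8-1, and 55 and 31 bases before it in Krtap1-5. The window of Krtap3-3 lacks these exact letters and holds the near variant TATATAA. Only the exact letters were sought, so a window without them may still hold a TATA box. Read on both strands, TATAAA stood in this window in 41 of 51 members (80.4%) and in 7.45% of 27025 genes. CTTTGA, the core recognised by LEF1 and the TCF factors, stood in 2 of 51 members (3.92%) and in 7.12% of the genes. The motifs cannot overlap each other, and a match is a description of the sequence only.

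Transcripts of all but 1 member were readily counted in every strain. Averaged over the 9 libraries, 3 genes stood at 100 CPM or more, 40 between 10 and 100 CPM, 13 between 1 and 10 CPM and 2 below 1 CPM. The most abundant were Krtap7-1 with a mean of 168.5 CPM and Krtap8-1 with 161.9 CPM, whose human counterparts are made in the hair cortex. Together they held 15.8% of the summed level, and the 10 highest members held 48.1%. Only Krtap13 failed the filter on low counts, with at most 3.48 estimated counts in a library, so 57 members were tested.

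Krtap7-1 had 295, 244 and 157 CPM in Tac111 replicates 1, 2 and 3, 78.5, 58.75 and 310.0 CPM in Tac146 replicates 2, 3 and 4, and 153, 107 and 113 CPM in B6 replicates 1, 2 and 3. Krtap8-1 had 290.5, 242 and 159.8 CPM in the Tac111, 73.8, 50.03 and 304 CPM in the Tac146 and 135.5, 95.2 and 107 CPM in the B6 libraries, in the same order. Both were highest in Tac146 replicate 4 and lowest in Tac146 replicate 3, and the 3 Tac111 libraries stood above the 3 B6 libraries. They were the highest 2 members in all 9 libraries, with Krtap7-1 above Krtap8-1 in 8 of them. Per kilobase of exon the order turned, with 282 CPM for Krtap8-1, 271 CPM for Krtap7-1 and 162 CPM for Krtap3-3.

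Among the other members of high glycine and tyrosine, Krtap21-1 (58.8 CPM), Krtap6-2 (57.8 CPM), Krtap16-3 (47.6 CPM), Krtap22-2 (47.4 CPM) and Krtap19-9b (42.6 CPM) led their families, as means over 9 libraries. The class ended with Krtap20-2 at a mean of 1.55 CPM. Krtap3-3, a high-sulfur gene of chromosome 11, had 202.5, 170.3 and 136 CPM in the Tac111, 67.3, 40.85 and 182 CPM in the Tac146 and 108, 82.9 and 81.4 CPM in the B6 libraries. It came next after Krtap7-1 and Krtap8-1 in 8 of the 9 libraries. In Tac146 replicate 4 Krtap15 took that place, with 207 CPM.

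Krtap1-5, Krtap3-2, Krtap3-1, Krtap15, Krtap11-1 and Krtap14 followed with means of 88.4, 88.3, 87.85, 87.4, 79.3 and 50.4 CPM. Human KRTAP11-1 is, like KRTAP7-1, a cortex protein. Below them, Krtap13-1, Krtap2-4, Krtap26-1 and Krtap24-1 led their families with 42.2, 33.97, 24.2 and 14.05 CPM. Krtap9-3 led its family with 49.7 CPM. Krtap4-1 was the highest gene of ultra-high cysteine, ahead of Krtap9-1 (48.7 CPM). It had 96.0, 84.1 and 57.1 CPM in the Tac111, 36.7, 23.7 and 134.9 CPM in the Tac146 and 60.9, 50.8 and 46.35 CPM in the B6 libraries. Krtap17-1, Krtap28-10, Krtap10-10 and Krtap5-2 were the highest of their families in that class at 26.9, 24.3, 23.2 and 20.1 CPM. In human hair, proteins of the KRTAP5, KRTAP10 and KRTAP12 families and KRTAP24-1 are found in the cuticle, the outer cell layer of the shaft. The least abundant families were led by Krtap12-1 (11.6 CPM), Krtap31-1 (6.95 CPM), Krtap27-1 (2.10 CPM), Krtap29-1 (1.56 CPM) and Krtap20-2 (1.55 CPM).

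The spread between libraries of one strain was wide, and widest in Tac146. Summed over the 58 genes, the level was 3593, 2945 and 2046 CPM in Tac111 replicates 1, 2 and 3 (mean 2861 ± 776.9, SD, n = 3). Tac146 replicates 2, 3 and 4 held 1149, 669 and 3855 CPM (1891 ± 1718), and B6 replicates 1, 2 and 3 held 1825, 1351 and 1374 CPM (1517 ± 267). The highest library thus exceeded the lowest 1.76 times in Tac111, 5.76 times in Tac146 and 1.35 times in B6. The highest and the lowest of all 9 libraries, Tac146 replicates 4 and 3, belonged to the same strain. Krtap transcripts made up 0.376% of the counts of Tac146 replicate 4 and 0.0658% of those of replicate 3.

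**Figure D1:**
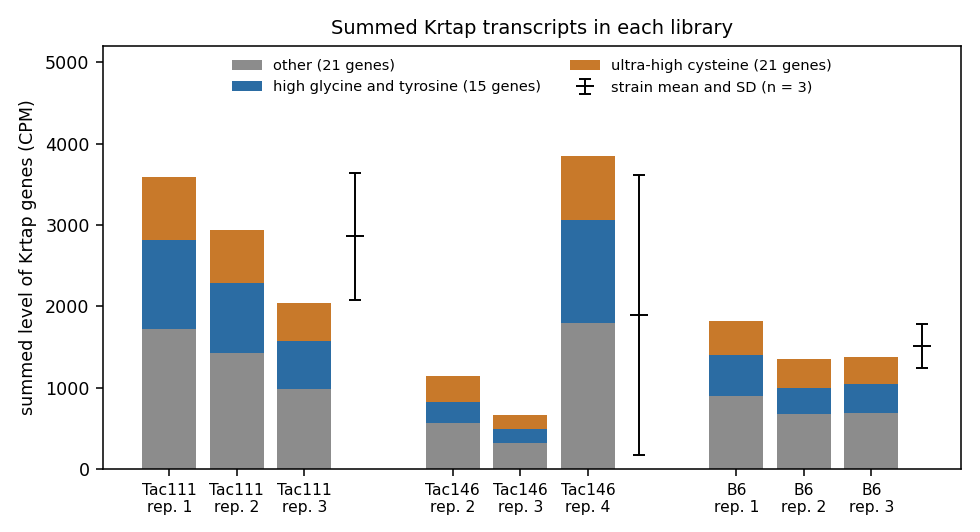
Summed level of the Krtap genes (CPM, y axis) in each of the 9 libraries (x axis, by strain), stacked by composition class, with the strain mean and SD (n = 3) beside each group of bars. Tac146 replicate 4 reaches 3855 CPM, while Tac146 replicates 2 and 3 stay at 1149 and 669 CPM, below every Tac111 and B6 library.

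The same libraries were high or low for nearly every member. Tac146 replicate 4 stood above both other Tac146 libraries in 57 of 58 members, and Tac146 replicate 3 was the lowest of all 9 libraries in 56. Tac111 replicate 3 was the lowest Tac111 library in all 58, and B6 replicate 1 the highest B6 library in 53. The exception in Tac146 was Krtap13, which has hardly any counts. Tac146 replicate 4 held the highest value of 32 members and Tac111 replicate 1 that of 24. Within strains, the median coefficient of variation of the tested members was 27.8% in Tac111, 84.8% in Tac146 and 19.4% in B6, against 11.5%, 11.5% and 9.54% over all 16520 tested genes. Of the 57 tested members, 17 lay above the 90th percentile of all genes in Tac111 and 6 in B6. In Tac146 all 57 did, where that percentile was 35%.

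A few members varied far more than the rest. Krtap31-1 had 14.7, 5.42 and 3.61 CPM in the Tac111, 2.23, 1.38 and 26.4 CPM in the Tac146 and 3.27, 2.96 and 2.58 CPM in the B6 libraries. Its neighbour Krtap31-2 had 9.36, 3.58 and 2.47 CPM in the Tac111, 1.79, 0.399 and 17.6 CPM in the Tac146 and 2.34, 1.565 and 1.19 CPM in the B6 libraries. Both stood out in Tac146 replicate 4 and Tac111 replicate 1 and lay between 0.399 and 3.27 CPM elsewhere in Tac146 and B6. The highest Tac146 library exceeded the lowest 19.1 times for Krtap31-1 and 44.2 times for Krtap31-2, which had 12.6 estimated counts in the lowest. Krtap9-5 (150 counts in Tac111 replicate 1 and 328 in Tac146 replicate 4, but 11 to 47 in the other libraries), Krtap19-1 and Krtap19-4 followed the same pattern, with ratios of 21.4, 20.2 and 18 in Tac146. At the other end, the Tac146 ratio was 2.83 for Krtap20-2, 2.84 for Krtap29-1 and 3.1 for Krtap17-1.

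The first comparison asks which members differ between Tac111 and B6. All 57 tested members had a positive log2 fold change, from 0.39 to 1.58 with a median of 0.99, beside a median of 0.02 over all genes tested. In 41 of the 57 the 3 Tac111 libraries stood above the 3 B6 libraries, against 13.7% of all tested genes, and in none did they stand below. None was called by edgeR's quasi-likelihood test at an adjusted p of 0.05, while 3.8% of all genes were. At an unadjusted p under 0.05 there were 14 members (24.6% of the 57), near the 21.8% of all genes. The fit pools the spread of the 3 strains, and the median standard error (SE) of the members was 0.48, against 0.14 for all genes.

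The lowest adjusted p belonged to Krtap5-2, a gene of ultra-high cysteine on chromosome 7. It had 39.8, 28.25 and 27.45 CPM in Tac111 and 14.0, 13.1 and 10.7 CPM in B6 libraries (31.8 ± 6.92 and 12.6 ± 1.72, SD, n = 3 each). The log2 fold change was 1.33 ± 0.36 (SE, edgeR adjusted p = 0.0715, range over the alternatives 0.00174 to 0.223). Krtap12-1 had 20.9, 17.5 and 15.1 CPM in Tac111 and 10.55, 8.49 and 5.86 CPM in B6 libraries. Its log2 fold change was 1.09 ± 0.36 (SE, edgeR adjusted p = 0.129, range 0.00556 to 0.333). The low end of this range came from a fit that blocked on replicate number. With only the 6 libraries the edgeR adjusted p was 0.0128. Krtap17-1 had 48.7, 35.9 and 31.8 CPM in Tac111 and 24.1, 18.5 and 16 CPM in B6 libraries, a log2 fold change of 0.99 ± 0.33 (SE, edgeR adjusted p = 0.134, range 0.0134 to 0.334). In each of the 3 genes the lowest Tac111 library exceeded the highest B6 library. For the most abundant members the log2 fold change was 0.90 ± 0.52 in Krtap7-1 and 1.03 ± 0.54 in Krtap8-1, with edgeR adjusted p of 0.326 and 0.288.

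By class, the median log2 fold change of Tac111 over B6 was 1.20 in the 15 genes of high glycine and tyrosine, 0.82 in the 21 of ultra-high cysteine and 0.895 in 20 tested others. The median SE was 0.61 in the class of high glycine and tyrosine and 0.42 in that of ultra-high cysteine.

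The count of members called depended on the libraries and genes in the fit, and each call was for a higher level in Tac111. With only the 6 Tac111 and B6 libraries 34 members passed (5.46% of all genes), without Tac146 replicate 4 23 (5.72%), without Tac146 replicate 3 7 (3.51%), with no filter on low counts 10 (3.71%) and with DESeq2 only Krtap5-2 (7.34%), while without any one of the other 7 libraries none passed. Krtap8-1, for example, had an edgeR adjusted p of 0.0226 without Tac146 replicate 4, at the same log2 fold change of 1.03.

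**Figure D2:**
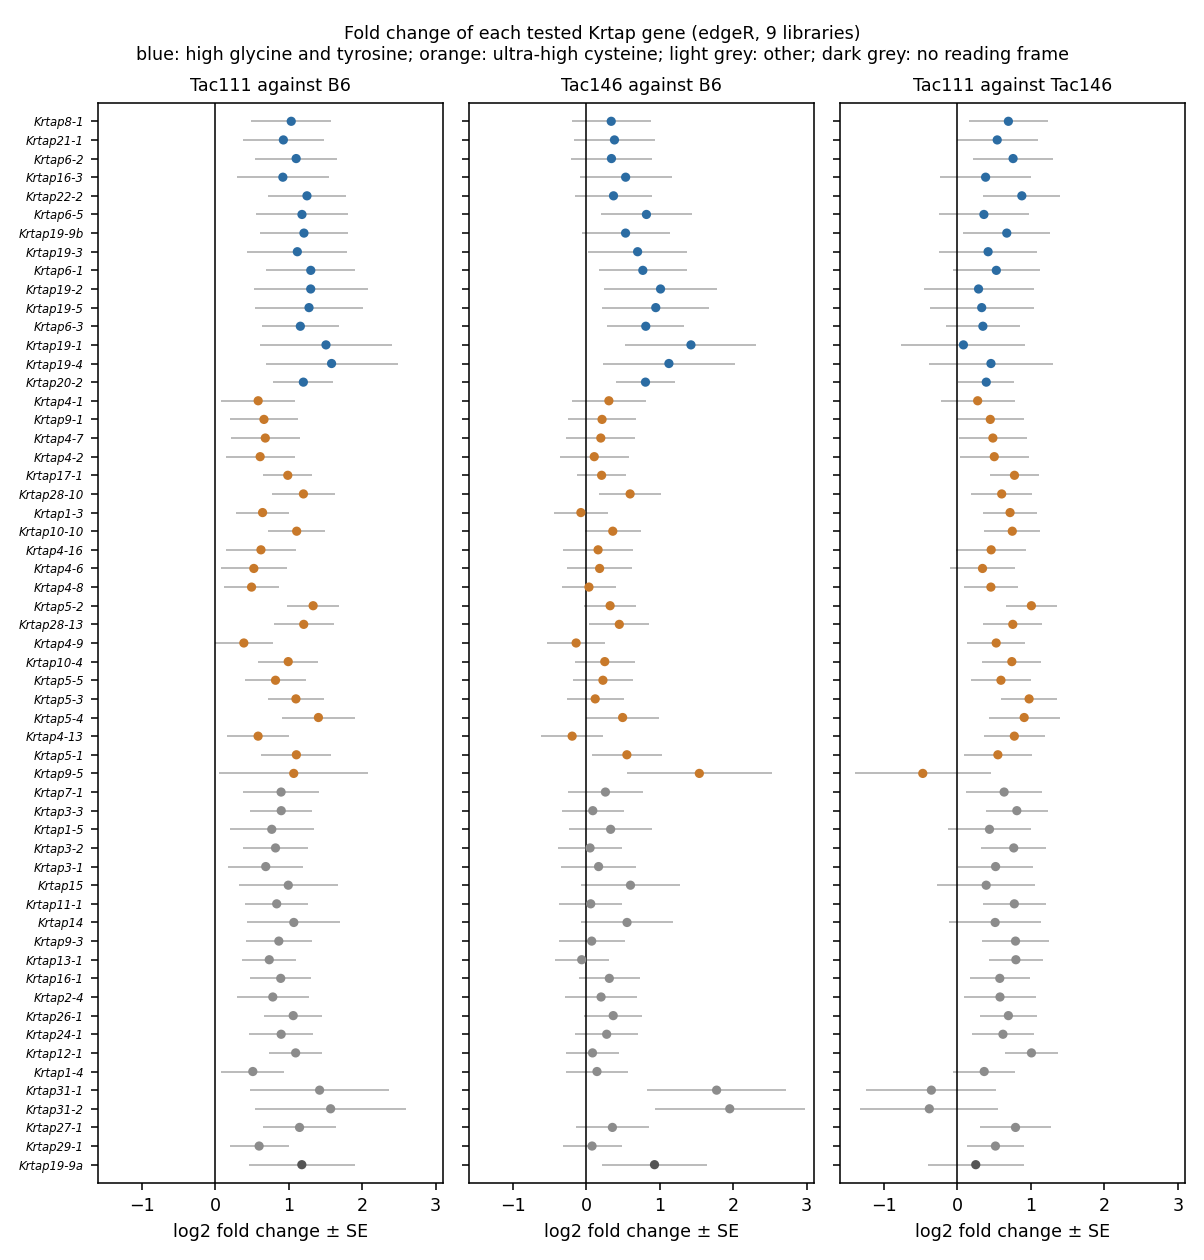
Log2 fold change of each of the 57 tested Krtap genes (x axis, points with bars of 1 SE) in the comparisons of Tac111 with B6, Tac146 with B6 and Tac111 with Tac146, from edgeR over 9 libraries; the comparisons share libraries. All points of Tac111 against B6 lie above 0 (0.39 to 1.58), those of Tac146 against B6 lie from -0.19 to 1.95, and none passed an adjusted p of 0.05.

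Between Tac146 and B6 no member differed beyond the spread between libraries. Of 57 log2 fold changes 53 were positive, with a median of 0.33 beside 0.01 over all genes, but this rested on 1 library. The summed level was 1891 ± 1718 CPM in Tac146 and 1517 ± 267 CPM in B6 libraries (SD, n = 3 each), a ratio of 1.25, and without Tac146 replicate 4 the other 2 Tac146 libraries averaged 909 CPM, 0.599 times the B6 mean. None of the 57 was called by edgeR, while 0.303% of all genes were, and none had an unadjusted p under 0.05, against 6.96% of all genes. DESeq2 called none either. In no member did all 3 Tac146 libraries stand above the B6 libraries, against 6.37% of all genes. Krtap20-2 had the lowest adjusted p, 0.750 in edgeR, and the highest fold changes were those of Krtap31-2 (1.95 ± 1.02, SE) and Krtap31-1 (1.77 ± 0.94). Without Tac146 replicate 4 the median log2 fold change was -0.72, with 34 members at an unadjusted p under 0.05, against 5.01% of all genes in that fit, and none called.

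Tac111 stood above Tac146 in most members, again without a call. Of the 57 log2 fold changes 54 were positive, from -0.47 in Krtap9-5 to 1.01 in Krtap12-1, with a median of 0.54 beside 0.02 over all genes. EdgeR called none of them and 8.89% of all genes, and DESeq2 none of them. At an unadjusted p under 0.05 there were Krtap5-2, Krtap5-3, Krtap12-1 and Krtap17-1, and 30.9% of all genes. The 3 Tac111 libraries stood above the 3 Tac146 libraries in Krtap5-2 and Krtap12-1, 2 of 57 members against 17.1% of all genes. Krtap5-2 had 39.8, 28.25 and 27.45 CPM in Tac111 and 16.5, 6.54 and 24.2 CPM in Tac146 libraries, a log2 fold change of 1.01 ± 0.35 (SE, edgeR adjusted p = 0.0874, range over the alternatives 0.0153 to 0.196). Krtap12-1 had 20.9, 17.5 and 15.1 CPM in Tac111 and 8.34, 3.99 and 14.0 CPM in Tac146 libraries. In both genes Tac146 replicate 4 came close to the lowest Tac111 library. Without Tac146 replicate 4 the edgeR call was made for 46 members (5.24% of all genes), all higher in Tac111, with a median log2 fold change of 1.55. With no filter on low counts it was made for 4, against 7.87% of all genes.

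The members kept nearly the same order of abundance in every library, with a Spearman rho of 0.886 to 0.993 over the 57 tested members between the 36 pairs of libraries, which is a description across genes. The lowest of these was between Tac146 replicates 2 and 4. Within the summed level, the share of the 15 genes of high glycine and tyrosine was 30.4%, 29.4% and 28.7% in Tac111 replicates 1, 2 and 3, 23.0%, 26.3% and 32.8% in Tac146 replicates 2, 3 and 4, and 27.0%, 23.6% and 26.6% in B6 replicates 1, 2 and 3. That of the 21 genes of ultra-high cysteine ran the other way, with 21.5%, 22.2% and 23.1% in Tac111, 27.6%, 25.8% and 20.6% in Tac146 and 23.4%, 26.3% and 23.55% in B6 libraries. These are parts of 1 sum, and the share of the other members ran only from 46.6% to 50.1%. The opposite course is thus not a separate observation. The 4 libraries with the highest summed level had the 4 highest shares of glycine and tyrosine genes. Tac146 replicate 3, with the lowest sum, had a share above only those of Tac146 replicate 2 and B6 replicate 2.

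Between the extreme pair of Tac146 libraries, the share in replicate 4 exceeded that in replicate 2 in 14 of 15 genes of high glycine and tyrosine (median ratio 1.48). It did so in 3 of 21 genes of ultra-high cysteine (median 0.706) and in 6 of 20 tested others (median 0.81). The highest ratios were those of Krtap31-1 (3.52), Krtap19-4 (3.35), Krtap31-2 (2.93) and Krtap19-1 (2.81). The lowest were those of Krtap29-1 (0.333), Krtap17-1 (0.417), Krtap16-1 (0.418), Krtap5-2 (0.438) and Krtap24-1 (0.45). The 9 genes of the Krtap5, Krtap10, Krtap12 and Krtap24 families, whose human counterparts are cuticle proteins, lay between 0.438 (Krtap5-2) and 0.987 (Krtap5-1). The libraries were picked for their values, so these ratios are a description with no test.

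**Figure D3:**
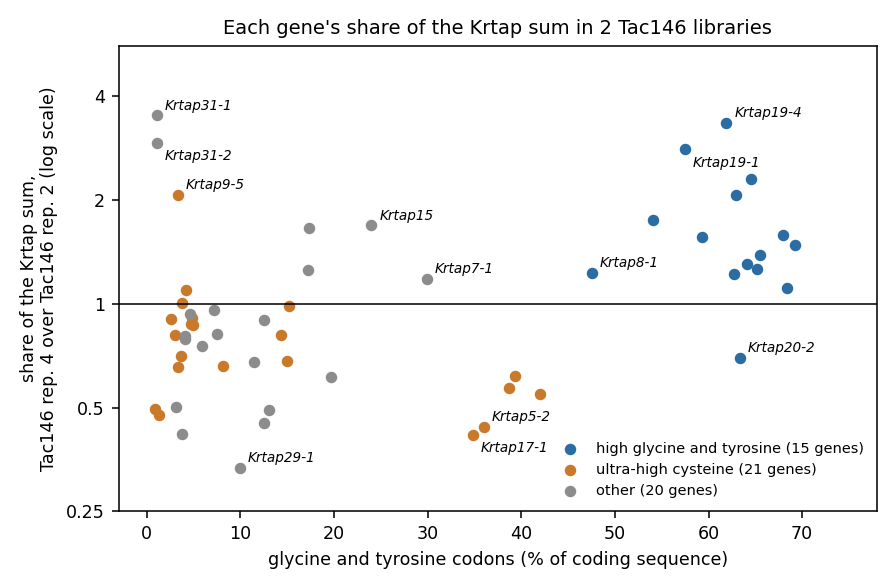
Share of each Krtap gene in the summed Krtap level of Tac146 replicate 4 over its share in Tac146 replicate 2 (y axis, log scale) against the percent of glycine and tyrosine codons in its coding sequence (x axis), for 56 tested genes with a reading frame. Of the 15 genes of high glycine and tyrosine 14 lie above a ratio of 1, and of the 21 of ultra-high cysteine 18 lie below it.

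Some other genes of the hair shaft followed the Krtap genes closely from library to library, and others less so. Over the 9 libraries, log2 CPM of Gprc5d, a receptor of keratinising hair cells, had a Pearson r of 0.995 with the log2 summed level, the highest of the 16463 tested genes outside the Krtap genes. Gprc5d had 84.1, 60.5 and 43.4 CPM in the Tac111, 27.4, 14.5 and 74.8 CPM in the Tac146 and 40.3, 29.5 and 30.1 CPM in the B6 libraries. Next came Gm11562, Gm11938, Krt34, Gm10229, Krt74, Krt81, Krt33a, Gm10228 and Gm11559, with r of 0.988 to 0.994. Krt34, Krt81 and Krt33a encode keratins of the hair cortex and Krt74 one of the inner root sheath. The 5 Gm genes lie on chromosomes 11 and 16, as most members do, and each shares stretches of 50 bases with at least 1 member. Gm11562 and Gm11938 share them with Krtap2-4, and Gm10228 and Gm10229 with Krtap6-1 and Krtap6-5. Gm11559 shares them with Krtap9-1 and Krtap10-10. The rule on symbols leaves such related genes outside the members, so the 16463 genes include them. Their r is therefore not that of genes unrelated to the members. The part of divided reads in their r was not tested. Without Tac146 replicates 3 and 4, the libraries farthest from the median, r of these 10 genes was 0.973 to 0.993. The 10 genes were picked for their r. An r of 0.9 or more was found for 124 of the 16463 genes (0.753%), these Gm genes included. It was reached by 12 of 15 listed hair shaft keratins (lowest r 0.749) and 9 of 10 inner root sheath genes (lowest 0.896). Of 10 other hair shaft proteins 5 reached it, with a lowest r of 0.303 in Selenbp1. Each tested member against the sum of the others had an r of 0.795 to 0.994, with 52 of 57 at 0.9 or more. Krtap9-5, Krtap29-1 and Krtap20-2 were the least alike.

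Keratins of the hair shaft, the filaments that the members bind, led by Krt81, Krt86 and Krt83, summed to 2091, 1732 and 1187 CPM in Tac111 replicates 1, 2 and 3, 794, 426.5 and 1778 CPM in Tac146 replicates 2, 3 and 4, and 1076, 923 and 884 CPM in B6 replicates 1, 2 and 3. The members were 1.70 to 1.72 times as high as these keratins in Tac111, 1.45, 1.57 and 2.17 times in Tac146 and 1.46 to 1.70 times in B6 libraries. Tac146 replicate 4 thus had more Krtap RNA for its RNA of these hair shaft keratins than any other library. Of the 15 hair shaft keratins tested, Krt32 was called higher in Tac111 than in B6 (log2 fold change 0.685, edgeR adjusted p = 0.0405), and also higher than in Tac146 (0.65, adjusted p = 0.0359). Over all genes tested, 3.8% were called in the comparison with B6 and 8.89% in that with Tac146. The other 14 keratins were not called, with medians over the 15 of 0.77, 0.07 and 0.65 for Tac111 against B6, Tac146 against B6 and Tac111 against Tac146. Keratins and trichohyalin of the inner root sheath, the layer that moulds the growing shaft, led by Krt71, Tchh and Krt25, were not called by edgeR or DESeq2 in any comparison (10 genes, medians 0.89, 0.47 and 0.56). At an unadjusted p under 0.05 in edgeR there were 3, 0 and 0 of these genes, against 21.8%, 6.96% and 30.9% of all genes.

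Among 10 transcription factors and signals of the hair lineage edgeR called none either, with medians of 0.45, 0.23 and 0.35. At an unadjusted p under 0.05 in edgeR there were 3, 1 and 1 of them, against 21.8%, 6.96% and 30.9% of all genes. DESeq2 called 1 of the 10, in Tac111 against B6, and 7.34% of all genes. The highest 3 of the 10 differed in their likeness to the Krtap sum over the 9 libraries. Ovol1, a transcriptional repressor of the epidermis, had an r of 0.016 and Prdm1, a further transcriptional repressor, one of 0.199. Dlx3, a homeobox factor of the hair matrix, had one of 0.885. Over the list r ran from 0.016 to 0.885, and no gene reached 0.9. Hoxc13 was picked after its values were seen. This factor, which activates hair keratin genes, had 20.1, 19.1 and 13.35 CPM in the Tac111, 15.6, 6.08 and 14.6 CPM in the Tac146 and 11.9, 11.7 and 7.82 CPM in the B6 libraries. In Tac146 it was slightly higher in replicate 2 than in replicate 4, unlike 57 of the 58 members. Gata3, Lef1, Shh and Wnt10b of the same list were also higher in replicate 2. Foxn1, Msx2, Dlx3, Prdm1 and Ovol1 were higher in replicate 4. The whole list summed to 302, 247.5 and 372 CPM in Tac146 replicates 2, 3 and 4. In Tac111 replicates 1, 2 and 3 it summed to 329, 322 and 273 CPM. These sums kept the order of the Krtap genes, while those of B6 did not. The proliferation list, led by Pcna, Mki67 and Top2a, summed to 248, 282 and 223 CPM in the Tac111, 260, 218 and 296 CPM in the Tac146 and 232, 236 and 220 CPM in the B6 libraries. Of other hair shaft proteins, led by Selenbp1, Psors1c2 and S100a3, Psors1c2 was called higher in Tac111 than in B6 (log2 fold change 0.82, edgeR adjusted p = 0.0245) and Selenbp1 higher in Tac111 than in Tac146 (0.69, adjusted p = 0.0393), 1 of 10 in each comparison. Over all genes the called shares were 3.8% and 8.89%.

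**Figure D4:**
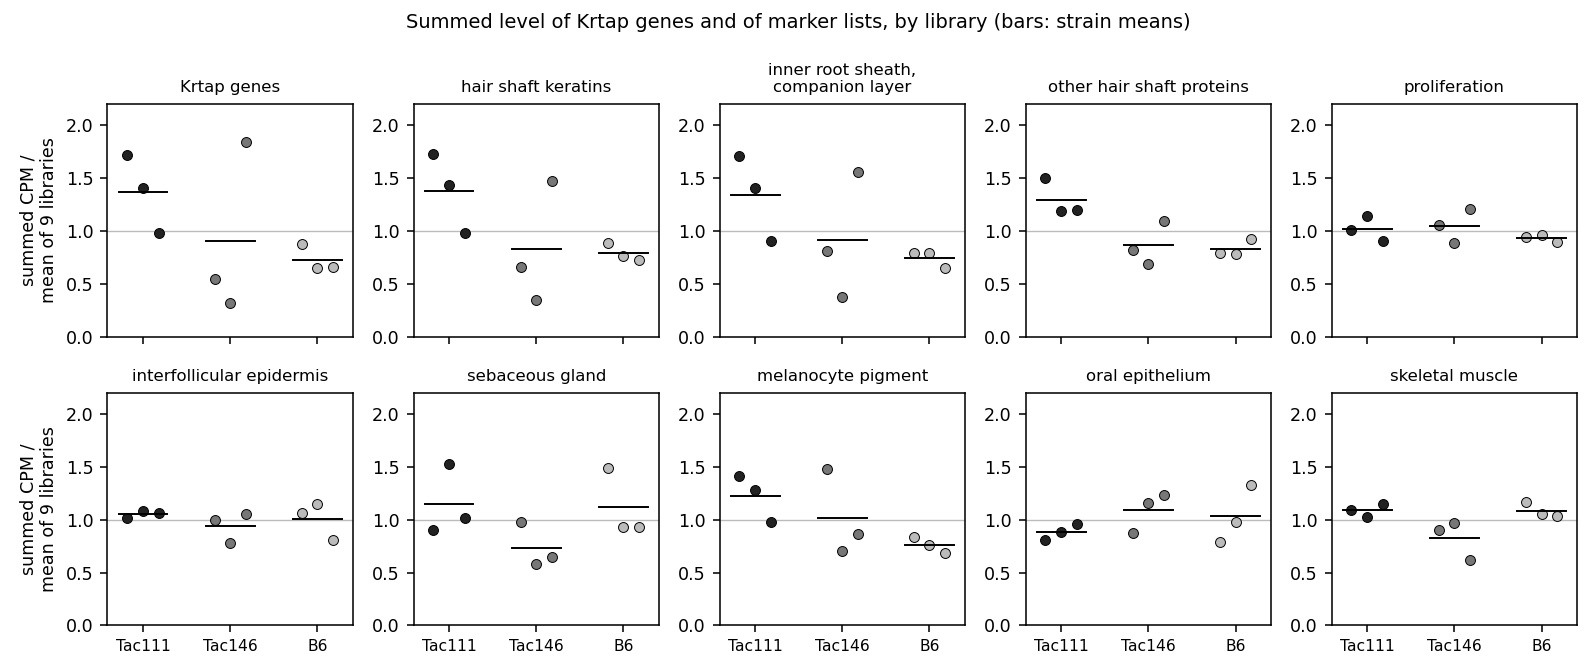
Summed CPM of the Krtap genes and of 9 marker lists in each library (points, left to right by replicate number) over the mean of 9 libraries (y axis), by strain, with lines at the strain means. Hair shaft keratins and inner root sheath genes repeat the order of the Krtap genes within Tac111 and within Tac146. Genes of other hair shaft proteins, proliferation and interfollicular epidermis do so within Tac146 and not within Tac111. Melanocyte genes do so within Tac111 and not within Tac146, and sebaceous gland, oral epithelium and muscle genes in neither. Within B6 none of the 9 lists repeats the order. The Krtap sums there are 1825, 1351 and 1374 CPM in replicates 1, 2 and 3. The order of replicates 2 and 3 thus rests on a small difference. In Tac111 replicates 1, 2 and 3 the other hair shaft proteins sum to 1854, 1468 and 1482 CPM. Selenbp1 alone holds 901, 717 and 901 CPM of these.

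Lists of other skin and lip cells were divided in whether they kept this order within Tac146. Interfollicular epidermis genes (Krt10, Krt1, Lor and 5 others) did, with 14030, 10940 and 14810 CPM in replicates 2, 3 and 4, and so did the proliferation list and the few CPM of the T cell list. In Tac111 the interfollicular epidermis genes summed to 14260, 15280 and 15010 CPM and in B6 to 14930, 16120 and 11440 CPM, an order unlike that of the Krtap genes. Sebaceous gland genes, led by Fa2h, Elovl3 and Far2, summed to 738, 1242 and 829 CPM in Tac111, 797.5, 474 and 525 CPM in Tac146 and 1209, 761 and 759 CPM in B6 libraries. Tac146 replicate 4 was thus among the lowest. Melanocyte pigment genes, led by Mitf, Dct and Pmel, were highest in Tac146 replicate 2, with 35.9 CPM, against 17 and 21 CPM in replicates 3 and 4. Krt15, a keratin of basal cells and the follicle bulge, had an r of -0.711 with the Krtap sum, and Krt17 of the outer root sheath one of 0.823. With Cd34 they led the outer root sheath list, which summed to 2390 to 2933 CPM over the 9 libraries, and the dermal papilla list (Sox2, Wif1, Crabp1 and 7 others) summed to 52.2 to 68.75 CPM; neither kept the order within a strain. Oral epithelium keratins were higher in Tac146 replicates 3 and 4 (87360 and 93340 CPM) than in replicate 2 (66140 CPM), and muscle genes lower in replicate 4 (23580 CPM) than in replicates 2 and 3 (34600 and 37040 CPM). How much hair-bearing skin and at which stage of hair growth each biopsy held is not stated by the labels, and the part of these in the differences between strains was not tested. In bulk RNA, fewer cells of a type and less RNA per cell cannot be told apart.

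Some members shared sequence, and possibly reads, with other genes. Estimated counts were whole numbers in all 9 libraries for 24 members, which held 45.4% of the summed mean level, while 34 had a count that was not whole, as arises when reads are divided among genes. Krtap7-1, Krtap8-1, Krtap15, Krtap11-1 and Krtap14 were among the 24. Krtap3-2 and Krtap3-3, with 1 coding sequence between them, and Krtap31-1 and Krtap31-2 (98.9% identical in coding sequence) had counts that were not whole in every library. The same held for Krtap6-1 and Krtap6-5 (97.9%), so the levels within each of these pairs are uncertain. Exons of 3 members overlapped those of another gene: Krtap10-10 and Krtap15 on the same strand and Krtap24-1 on the opposite strand.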

How the data were processed

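Polyadenylated RNA of lip biopsies was sequenced after a stranded library kit, per the labels' protocols. Per the file headers, each deposited file lists an expected count per gene. The submitters' processing notes name STAR, RSEM and GRCm38; the sources used here do not state versions, annotation or strand setting. Repeated names were summed, expected counts were rounded, and edgeR 4.0.16 in R 4.3.3 (quasi-likelihood test, TMM factors, its own filter on low counts) modelled the 3 strain means over 9 libraries (6 residual degrees of freedom). P-values were adjusted by Benjamini-Hochberg over 16520 genes, two-sided, and called below 0.05. The approximate SE came from the fold change and its F statistic. CPM use TMM-scaled library sizes, and likeness used log2 CPM with a prior count of 2. The depth, given with the libraries, leaves few counts for the lowest members.

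Members, marker lists and tests were chosen with earlier results of these data known. Named were the 15 highest members, the highest of each family, any member called, the 10 most alike genes and the 3 highest genes of each list; any other gene was named after its values were seen. Files hold 1 value column per sample, and 15 of 16 listed hair keratins matched. Shared sequence was sought in windows of 50 bases. Scripts were checked on simulated counts; tables and figures used Python 3.11.15 and pandas 2.3.3. Alternatives were 3 other scalings, DESeq2 1.42.0, other filters, a replicate block, 6 libraries only and each library left out. Protein sequences were not used here.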

Additional observations from a re-analysis of the deposited data

How the results depend on the processing

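The direction and the side of the threshold held for all 3 comparisons under median-ratio, upper-quartile and library-total scaling and with a filter of 1 CPM in 3 libraries. For Tac111 against B6, members called were 0 in the reported fit, 1 with DESeq2, 10 with no filter on low counts and 34 with only the 6 libraries, and 0 to 23 when 1 library was left out. For Tac111 against Tac146 they were 0, then 4 with no filter and 0 to 46 when 1 library was left out. Tac146 against B6 gave 0 under each alternative. When 1 library was left out, the median log2 fold change of the tested members ran from 0.74 to 1.19 for Tac111 against B6, from -0.724 to 0.704 for Tac146 against B6 and from 0.190 to 1.552 for Tac111 against Tac146. The reversal to -0.724 came without Tac146 replicate 4. The ratio of the highest to the lowest Tac146 library ran from 1.72 without replicate 4, over 3.35 without replicate 3, to 5.76. Over the scalings the mean summed level moved by less than the SD of its strain.

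Replicate numbers did not pair the libraries: correlations of their deviations within the 7 same-numbered pairs were -0.089 to 0.206, with 1 over 0.1. With a replicate block, members called were 47 for Tac111 against B6 and 51 for Tac111 against Tac146, all higher in Tac111, against 5.28% and 3.83% of all genes. The median log2 fold change was then 1.409 for Tac111 against Tac146 and -0.613 for Tac146 against B6, a reversal. Number 4 occurs in 1 library only, so by construction the block fits Tac146 replicate 4 by itself. That library then adds nothing to the comparisons of strains, as when it is left out (median -0.724 for Tac146 against B6). Each group holds 3 libraries, which limits precision. Depth limits Krtap13, with at most 3.48 counts in a library, and, in Tac146 replicate 3, Krtap19-9a (4 counts), Krtap9-5 (11) and Krtap31-2 (12.6).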
